A study of Mus musculus with 451 samples.

Results

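The 10 genes described here encode secreted immune signals that fibroblasts can make: the chemokines Cxcl1, Cxcl5, Cxcl12, Cxcl14, Ccl2 and Ccl7, the cytokines Il6, Lif and Il33, and the growth factor Csf1. They were taken by symbol from a table of read counts with 48795 gene symbols. No measured value entered the rule, but the genes were chosen with earlier results of these data known. The table covered 451 single cells of the tail tendons of C57BL/6 mice at an age of 4 weeks, 227 labelled WT and 224 labelled Mkx-/-. Mkx encodes Mohawk homeobox, a transcription factor of the tendon lineage, and cells of both genotypes had been freed with collagenase I and captured in wells of a Fluidigm C1 chip before sequencing. The labels named neither animals nor chips, nor how many animals were pooled, so each genotype was 1 sample, no test between genotypes was possible, and every interval below is an exact 95% interval of counting error alone. Counts were of reads and not of molecules.

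Chemokines are small secreted proteins that guide migrating leukocytes through receptors on their surface. CXC and CC chemokines are told apart by the spacing of their first cysteines. CXC chemokines such as Cxcl1 and Cxcl5 attract neutrophils, whereas Ccl2 and Ccl7 attract monocytes. Il6 and Lif signal through the shared receptor chain gp130, Il33 is an alarmin read by the receptor ST2, and Csf1 sustains macrophages. In connective tissue many of these genes are quick-response genes that can be switched on by injury, by inflammatory cytokines and by the handling of cells.

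In sum there were 13630536 reads of WT cells, where the median cell had 51788 (13076 to 335813), and 14145394 of Mkx-/- cells, where it had 56121 (14226 to 294791). Mkx itself stood at 33.8 CPM (reads per 1000000 reads) in cells labelled WT and at 15.5 CPM in cells labelled Mkx-/-, and the part of the gene removed by the allele is not given in the sources used here. Cells were clustered without the chemokine and cytokine genes. One cluster gave 74 WT and 80 Mkx-/- tenocyte-like (TC-like) cells, led by Tnmd, Cilp2 and Slpi, and a pair of clusters was pooled as 89 and 87 tendon progenitor-like (TPC-like) cells, led by Arl5c, Ildr2 and Cd248. The names rest on 6 tenocyte markers and 5 progenitor markers. A cluster took a name where all markers of that type stood higher inside than outside it, in both genotypes. That these markers had their highest summed level in the cells named after them thus largely follows from this rule. The other 64 and 57 cells stayed unnamed, with Pf4, C1qb, Lyz2 and C1qc, which macrophages express, among their 10 leading genes. TC-like cells were read more deeply, with medians of 82854 and 72897 reads against 47970 and 48958 in TPC-like and 37780.5 and 43732 in unnamed cells. At least 3 markers of 1 other cell type were read in 11 WT and 8 Mkx-/- cells, 8 of them TC-like, 8 unnamed and 3 TPC-like. These cells held 8.69% and 4.3% of the Cxcl1 reads and 6.84% and 2.48% of the Ccl2 reads. Over both genotypes pooled, Cxcl1 stood at 3230 CPM in them and 3488 CPM in the other cells, and Ccl2 at 5006 and 6635 CPM. Leaving them out took the summed Cxcl1 level from 2175 to 2137 CPM in WT and from 4722 to 4763 CPM in Mkx-/- cells. All 11 macrophage markers had reads, with a summed level of 102.6 CPM in WT cells and of 75.01 CPM in Mkx-/- cells, while the neutrophil markers S100a9 and Retnlg and the T cell markers Cd3d, Cd3g and Trbc1 were at 0 reads in all cells.

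The members covered a wide range of levels. Their joint share of the reads was 1.13% (WT) and 1.38% (Mkx-/-), and Ccl2 alone ranked 10 among all genes by reads in both genotypes. Divided by exon length, the summed level in WT cells was 5829 CPM per kb for Ccl2, 2282 for Cxcl1 and 2280 for Ccl7. On the same scale it was 89.8 for Csf1 and 58.9 for Cxcl14, and 6.41 or less for the rest. The intervals of Cxcl1 and Ccl7, of Il6 (6.41) and Il33 (4.57), and of Lif (3.09) and Cxcl12 (2.36) overlapped, so the order within these pairs was not resolved. In Mkx-/- cells Cxcl1, at 4955 CPM per kb, stood apart from Ccl7 at 2282, and Cxcl14 (120.6) stood above Csf1 (106.5). Exon length is a rough divisor for libraries that favour transcript ends, and it weighs most on genes with long exons such as Cxcl12.

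Ccl2 was read in nearly every cell: in 99.1% of the WT (96.9 to 99.9) and in each of the 224 Mkx-/- cells. Cxcl1 was read in 93.8% and 98.7% of cells, and Ccl7 in 93.8% and 95.5%. These 3 chemokines were thus read in over 90% of the cells of each genotype, as were 3.21% of the 10963 genes with at least 100 reads. With Csf1 and Cxcl14, 5 members were read in over 10% of the cells of each genotype, as were 64.9% of those genes. Csf1 was read in 78.4% and 84.8% of cells and Cxcl14 in 48.5% and 61.2%. The other members were rare: Cxcl12 was read in 11.5% and 9.82% of cells, Il6 in 7.49% and 3.13%, Lif in 7.49% and 6.7%, and Il33 in 6.17% and 2.23%. Cxcl5 had 15 reads in all, 12 from 1 WT cell that also carried markers of another cell type and 3 from 1 Mkx-/- cell. It fell short of the 100 reads asked for below, which the other 9 members had. At an equal depth of 20000 reads per cell Cxcl14 would be read in 41.1% of WT and 51.02% of Mkx-/- cells, and Il6 in 4.03% and 2.79%.

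How far a level rested on single cells differed as much as the level itself. Of all Ccl2 reads the top WT cell gave 2.45% and the top Mkx-/- cell 2.65%. For Ccl7, Csf1, Cxcl1 and Cxcl14 it gave between 3.2% and 7.92%. For the rare members it gave far more: 28.5% and 17.9% for Cxcl12, 28.96% and 18.4% for Lif, 24.02% and 36.7% for Il33, and 38.9% and 27.4% for Il6. Even the widespread chemokines were uneven, since the top 23 WT cells and the top 22 Mkx-/- cells gave 53.7% and 52.8% of the Cxcl1 reads and 36.3% and 32.8% of the Ccl2 reads.

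**Figure D1:**
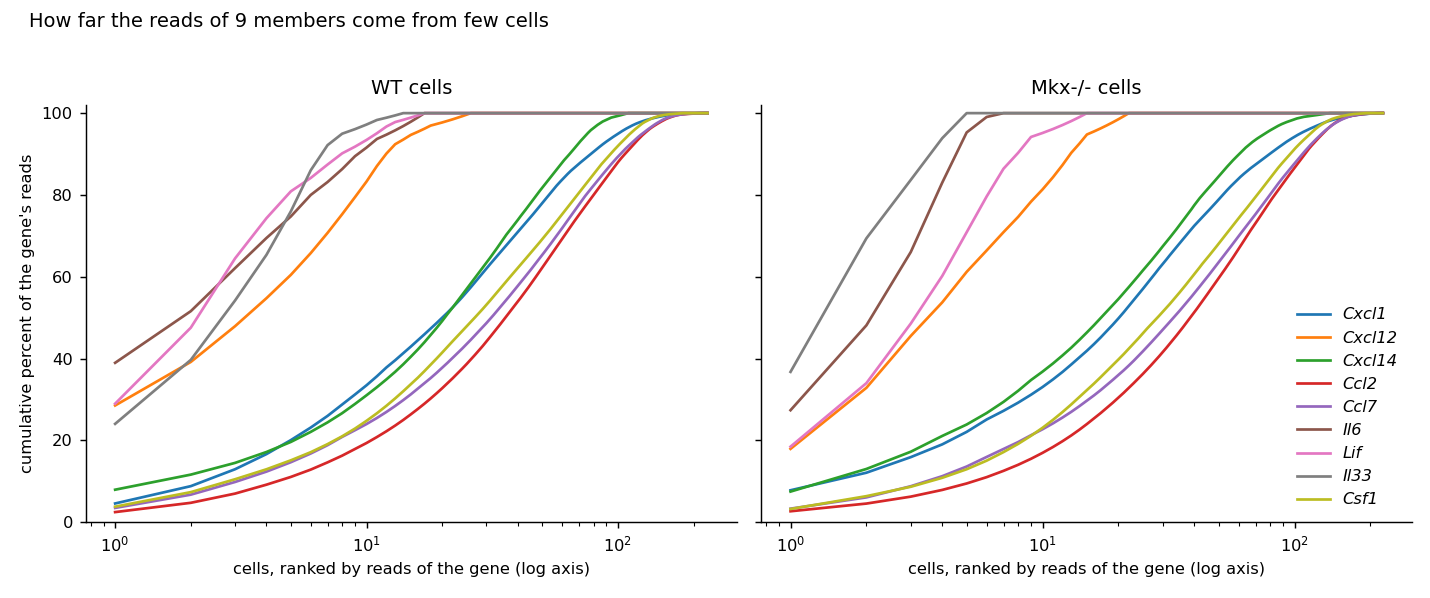
Cumulative percent of the reads of each gene (vertical axis) against the number of cells, ranked from the cell with most reads of that gene (horizontal log axis), for WT and Mkx-/- cells. Each line is 1 of the 9 members with at least 100 reads: Il6, Lif, Il33 and Cxcl12 reach 100% within 26 cells or fewer, whereas Ccl2, Ccl7, Csf1, Cxcl1 and Cxcl14 climb slowly over 100 cells or more.

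Between genotypes the members did not move as a group. Taking log2 of the Mkx-/- over the WT level, their median was 0.00087, against 0.05 over all genes tested. Of the 9 members, 2 were over 2-fold higher in Mkx-/- cells (Cxcl1 and Cxcl14) and 2 were over 2-fold lower (Cxcl12 and Il33), where 7.23% and 6.12% of all genes lay past these marks. Cxcl14, at 2.05-fold, and Cxcl12, at 0.491-fold, lay just past the mark, and Lif, at 0.542-fold, just short of it. The 2 higher members passed it in sums over reads, whereas with each cell weighted equally the log2 ratio was 0.81 for Cxcl1 and 0.78 for Cxcl14, both under 2-fold. Leaving out the top cell of each genotype left Cxcl12 under 2-fold as well, at -0.82.

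**Figure D2:**
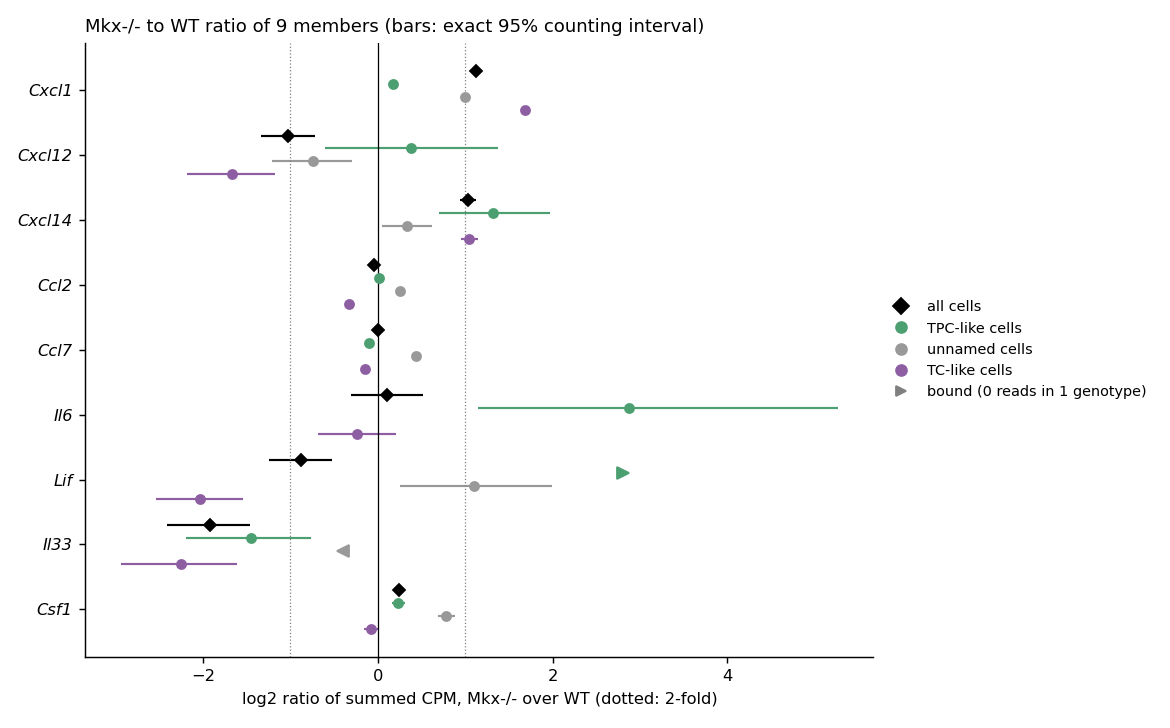
Log2 ratio of summed CPM in Mkx-/- to WT cells (horizontal axis) for 9 members, over all cells (black diamonds) and within TPC-like, unnamed and TC-like cells (circles), with exact 95% counting intervals as bars and arrowheads for bounds where 1 genotype had 0 reads. Cxcl1 lies at 1.69 in TC-like and 0.17 in TPC-like cells, Il33 lies below 0 in TPC-like and TC-like cells, and over all cells Ccl2 and Ccl7 lie at -0.042 and 0.00087.

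Cxcl1, which draws neutrophils through the receptor Cxcr2, was higher in Mkx-/- cells. It lies on chromosome 5 at 91320267 to 91322141 (NCBIM37, plus strand). Per cell it ranged from 0 over a median of 692 to 28174 CPM in WT and from 0 over 1717 to 44068 CPM in Mkx-/- cells, so the ranges overlapped almost fully while the medians stood apart. The summed level was 2175 CPM (2150 to 2200) for WT and 4722 CPM (4686 to 4758) for Mkx-/- cells, with a log2 ratio of 1.12 (1.10 to 1.14). More Mkx-/- cells were at the high end: 12.1% of them stood above 10000 CPM, against 4.85% of WT cells.

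The difference in Cxcl1 was largest in TC-like cells. Their per-cell median was 612 CPM (WT) and 2740 CPM (Mkx-/-), and their highest cell stood at 14964 and 44068 CPM. Summed, the level was 1927 CPM (1893 to 1961) in WT and 6217 CPM (6158 to 6276) in Mkx-/- TC-like cells, 3.23-fold higher, with 5.22% of all genes over 3-fold higher in these cells. In TPC-like cells the medians were 893 and 1072 CPM and the sums 2734 and 3079 CPM, a log2 ratio of 0.17 (0.14 to 0.21), and with each cell weighted equally this ratio was -0.030. The clusters pooled as TPC-like went opposite ways, one from 3241 to 3796 CPM and the other from 2045 to 1562 CPM, and the second held 40 of the 89 WT and 28 of the 87 Mkx-/- cells. Unnamed cells lay between, with 1822 and 3653 CPM. The log2 ratio was thus 1.52 higher in TC-like than in TPC-like cells, and 17.5% of the genes with enough reads in both had a gap of over 1; of the 5 members with enough reads, Cxcl1 was the 1 with such a gap. The ratio in TC-like cells was 1.70 without the cells that carried markers of another type and 1.69 without the top cell of each genotype. Among all genes the median ratio in TC-like cells was 0.20, beside a lower collagen level there (Col1a2 at 157951 CPM (WT) and 105837 CPM (Mkx-/-)).

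The same cells turned the order of the states around. WT TC-like cells held 0.705 times the Cxcl1 level of WT TPC-like cells, whereas Mkx-/- TC-like cells held 2.02 times that of their TPC-like counterparts. The share of all Cxcl1 reads that came from TC-like cells was 41.3% in WT and 64.4% in Mkx-/-. Cxcl5, on the same chromosome at 91188325 to 91190651, is a neutrophil chemokine too, but its 15 reads allowed no comparison.

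**Figure D3:**
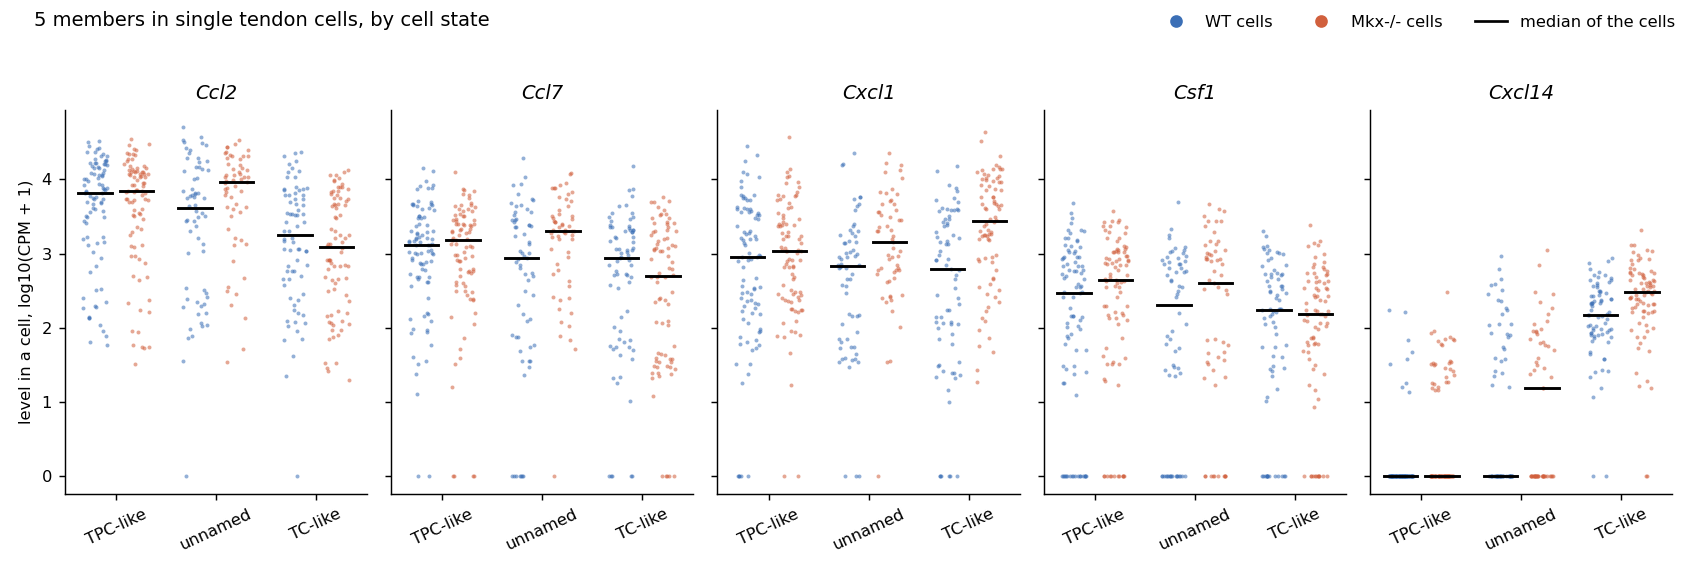
Level in each cell as log10(CPM + 1) (vertical axis) for Ccl2, Ccl7, Cxcl1, Csf1 and Cxcl14 in TPC-like, unnamed and TC-like cells; each point is 1 cell, blue for WT and orange for Mkx-/-, and black bars are medians over cells. The Cxcl1 median of TC-like cells stands at 612 CPM (WT) and 2740 CPM (Mkx-/-), and most Cxcl14 points of TPC-like cells lie at 0.

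Cxcl14, a CXC chemokine made by many epithelia and fibroblasts, was a gene of TC-like cells in both genotypes. It lies on chromosome 13 at 56390008 to 56397912 (NCBIM37, minus strand). In TC-like cells it ranged per cell from 0 over a median of 148.8 to 860.3 CPM in WT and from 0 over 302 to 2063 CPM in Mkx-/-, and it was read in 97.3% and 97.5% of them. In TPC-like cells the median was 0 in both genotypes, the highest cells stood at 173.4 and 304 CPM, and it was read in 10.1% and 34.5% of cells, or 6.7% and 20.1% at equal depth. TC-like cells thus gave 85.1% of all Cxcl14 reads in WT and 90.1% in Mkx-/-.

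Summed, Cxcl14 stood at 196.2 and 405 CPM in WT and Mkx-/- TC-like cells, a log2 ratio of 1.05 (0.95 to 1.14). With each cell weighted equally that ratio was 0.86. In TPC-like cells the level was 6.82 CPM (4.63 to 9.68) and 16.99 CPM (13.4 to 21.2), and in unnamed cells 68.4 and 85.96 CPM. In unnamed cells 25.4% of the Mkx-/- reads came from 1 cell. The log2 ratio there was 0.33, but 0.085 without the top cell of each genotype and -0.16 with each cell weighted equally. The TC-like level exceeded the TPC-like level 28.8-fold in WT and 23.8-fold in Mkx-/- cells. Of the 9 members, Cxcl14 and Il6 were over 2-fold higher in TC-like than in TPC-like cells in both genotypes, as were 5.06% of genes with at least 100 reads over all cells, and Ccl2 was over 2-fold higher in TPC-like cells, as were 16.5%. For Il6 in WT this rested on 3 TPC-like reads (log2 ratio 4.44, 2.85 to 6.74).

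Cxcl12, which holds and guides cells through Cxcr4, was low and patchy. Its gene lies on chromosome 6 at 117118553 to 117131385 (NCBIM37, plus strand). The median cell was at 0 in each genotype, and the highest stood at 2774 CPM (WT) and 633 CPM (Mkx-/-). The summed level was 19.3 CPM (17.03 to 21.8) in WT and 9.47 CPM (7.94 to 11.2) in Mkx-/- cells. In TC-like cells it was 21.1 and 6.65 CPM, read in 13 WT and 5 Mkx-/- cells, a log2 ratio of -1.67 (-2.18 to -1.17). In unnamed cells 66.96% of the WT reads came from 1 cell, and the ratio there turned from -0.74 to 0.34 without the top cell of each genotype. In TPC-like cells its 17 and 22 reads gave a log2 ratio of 0.38 (-0.60 to 1.38), but 76.5% of the WT reads came from 1 cell, and without the top cells the ratio was 2.02. In TC-like cells it was -2.39 without them.

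Ccl2 and Ccl7, monocyte chemokines that share the receptor Ccr2, lie 8258 bases apart on chromosome 11 (NCBIM37, Ccl2 at 81849073 to 81850955 and Ccl7 at 81859214 to 81861027, both on the plus strand). Gm17268 overlaps Ccl2 on the other strand, and since no source used here gives the strand setting of the counting, reads of the 2 genes cannot be told apart there. Ccl2 ranged per cell from 0 over a median of 3977 to 50607 CPM in WT and from 18.9 over 4983 to 34684 CPM in Mkx-/- cells. Ccl7 ranged from 0 over 1022 to 19441 CPM and from 0 over 1251 to 12500 CPM. Both were at like summed levels in the genotypes: Ccl2 at 6633 CPM (6590 to 6677) and 6443 CPM (6401 to 6485), and Ccl7 at 1827 CPM (1804 to 1849) and 1828 CPM (1806 to 1850).

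By state, the summed level of both was lowest in TC-like cells. The median cell held 6620 CPM of Ccl2 among WT TPC-like and 1811 CPM among WT TC-like cells, and 6887 and 1243 CPM in Mkx-/- cells. Summed levels of Ccl2 were 8814 and 4322 CPM in WT, a 2.04-fold difference, and 8925 and 3431 CPM in Mkx-/-, a 2.6-fold difference. Without the cells that carried markers of another type the WT difference was 1.87-fold and that in Mkx-/- cells 2.51-fold. Ccl7 followed at 1.52-fold and 1.58-fold. The clusters pooled as TPC-like differed in Ccl2, one at 10506 CPM (WT) and 11171 CPM (Mkx-/-), the other at 6514 and 4174 CPM. The second was under 2-fold above TC-like cells in both genotypes, and in it Ccl2 was lower in Mkx-/- than in WT cells. In TC-like cells Ccl2 was lower in Mkx-/- than in WT, with a log2 ratio of -0.33 (-0.36 to -0.31), and in unnamed cells it was higher, at 0.25 (0.23 to 0.28). That last value moved with the choice of cells, from 0.12 when cells were split by marker score into 3 equal parts to 0.69 when 10 dimensions were clustered. Ccl7 was higher in unnamed Mkx-/- cells too, with a log2 ratio of 0.44 (0.39 to 0.49) that ran from 0.25 to 0.81 under the other splits of the cells. The median of these cells was 2.24-fold higher for Ccl2 and 2.34-fold higher for Ccl7.

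**Figure D4:**
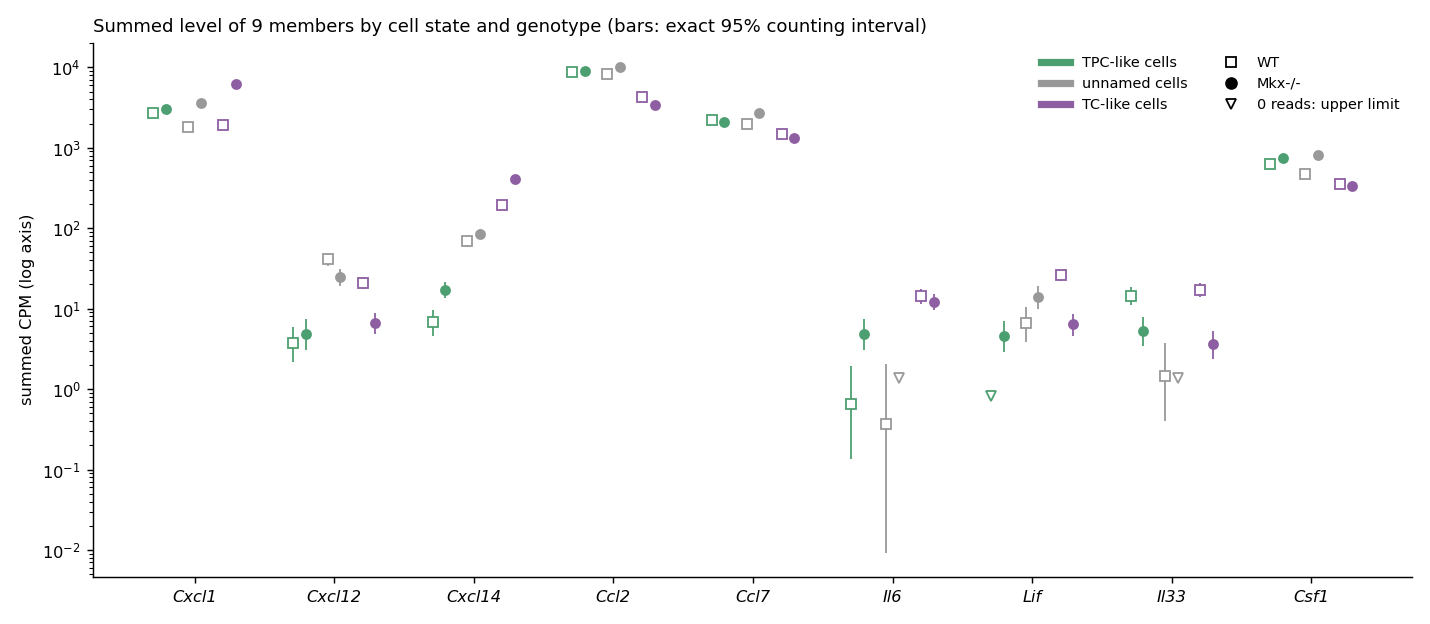
Summed CPM (log axis) of 9 members in TPC-like, unnamed and TC-like cells (green, grey and purple), with open squares for WT, filled circles for Mkx-/-, bars for the exact 95% counting interval and open triangles for the upper limit where 0 reads were found. Cxcl14 climbs from 6.82 CPM in TPC-like to 196.2 CPM in TC-like WT cells, while Ccl2 goes down from 8814 to 4322 CPM.

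Il6, which acts through gp130 on many tissues, was read mostly in TC-like cells. It lies on chromosome 5 at 30339701 to 30346508 (NCBIM37, plus strand). Of its WT reads 95.8% (91 reads) came from 15 TC-like cells. Of its Mkx-/- reads 79.2% (84 reads) came from 6 TC-like cells, and the other 22 reads from 1 TPC-like cell at 449 CPM. In TC-like cells the summed level was 14.3 CPM (11.5 to 17.6) in WT and 12.2 CPM (9.69 to 15.04) in Mkx-/-, but the share of these cells with a read was 20.3% (11.8 to 31.2) in WT and 7.5% (2.8 to 15.6) in Mkx-/-. At equal depth these shares were 10.3% and 6.39%, against 1.05% and 1.19% of TPC-like cells. The highest TC-like cells stood at 338 CPM (WT) and 435 CPM (Mkx-/-), so fewer TC-like cells held a like number of reads. The 17 WT cells with an Il6 read had a median depth of 89512 reads against 50279.5 in the rest. Of the 17, 15 also had a Cxcl14 read, as did 45.2% of the other WT cells and 97.3% of all WT TC-like cells.

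Lif, a gp130 cytokine too, was shared out between the states in another way. Its gene lies on chromosome 11 at 4157560 to 4172517 (NCBIM37, plus strand). The summed level was 13.4 CPM (11.6 to 15.5) in WT and 7.28 CPM (5.94 to 8.83) in Mkx-/- cells. TC-like cells held 90.2% of the WT reads, in 14 cells, and 42.7% of the Mkx-/- reads, in 6 cells, at 25.98 and 6.36 CPM, a log2 ratio of -2.03 (-2.54 to -1.54). In TPC-like cells the WT had 0 reads, which was set to the floor of 3, and the Mkx-/- cells had 21 reads in 4 cells. Against that floor the level was 7.02-fold higher in Mkx-/- cells, or 4.05-fold without the top cell. These folds leave the counting error of the Mkx-/- reads aside, and the exact interval of the log2 ratio began at 2.38. No value of Lif in TPC-like cells met the 100 reads asked for, and 9 of the 21 reads came from 1 cell. Among the 17 WT cells with a Lif read 4 also had an Il6 read, and among the 15 in Mkx-/- none had. Of the cells without a Lif read, 6.19% (WT) and 3.35% (Mkx-/-) had an Il6 read.

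Il33, a nuclear alarmin released from damaged cells, had the lowest ratio of the 9 members with at least 100 reads. It lies on chromosome 19 at 29999604 to 30035194 (NCBIM37, plus strand). Its WT reads came from 14 cells with a highest value of 345 CPM, and its 49 Mkx-/- reads came from 5 cells with a highest value of 247 CPM. The summed level was 13.1 CPM (11.3 to 15.2) and 3.46 CPM (2.56 to 4.58), a log2 ratio of -1.92 (-2.41 to -1.46), or -2.20 without the top cell of each genotype. It was lower in Mkx-/- cells both among TPC-like cells (14.5 and 5.3 CPM) and among TC-like cells (17.2 and 3.62 CPM). The sums in these states rest on 11 WT and 5 Mkx-/- cells, and the intervals do not cover differences between cells.

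Csf1, the growth factor of the macrophage lineage, was widespread. Its gene lies on chromosome 3 at 107543966 to 107563387 (NCBIM37, minus strand). It ranged per cell from 0 over a median of 181.5 to 4940 CPM in WT and from 0 over 298 to 4608 CPM in Mkx-/- cells. The summed level was 472 CPM (461 to 484) for WT and 560.4 CPM (548 to 573) for Mkx-/- cells, with a log2 ratio of 0.25 (0.20 to 0.29). The difference was largest in unnamed cells, at 474 and 817 CPM (log2 ratio 0.79, 0.69 to 0.89), and in TC-like cells, at 356 and 338 CPM, the interval of the ratio held 0. Like Ccl2 it was lowest in TC-like cells, 1.78-fold below TPC-like cells in WT and 2.21-fold below in Mkx-/-. This gap came mostly from one of the clusters pooled as TPC-like, with Csf1 at 833 CPM (WT) and 902 CPM (Mkx-/-). In the other cluster Csf1 stood at 363 and 419 CPM, near the level of TC-like cells.

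Counting members with at least 100 reads within a state, 2 of 9 were over 2-fold higher in Mkx-/- TC-like cells (Cxcl14 and Cxcl1), beside 14.1% of all genes, and 3 of 9 were over 2-fold lower (Cxcl12, Il33 and Lif), beside 6.71%. In TPC-like cells 1 of 5 was higher (Cxcl14, with 8.4% of all genes) and none was lower (8.04%), and Cxcl14 was at 1.73-fold when the listed genes were kept in the clustering. In unnamed cells 1 of 6 was higher (Cxcl1, at 2.01-fold, with 10.2% of all genes) and none was lower (9.7%). Cxcl1 fell short of the mark there in cells split by marker score (log2 ratio 0.69) and by the mean of per-cell levels (0.84). The median log2 ratio over the members tested was -0.24 in TC-like cells (all genes 0.20), 0.38 in unnamed cells (0.019) and 0.17 in TPC-like cells (-7.3e-05).

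Within cells the abundant members went together to different degrees. Over 227 WT and 224 Mkx-/- cells the correlation of log2(CPM + 1) was 0.589 and 0.620 for Ccl2 with Ccl7, and 0.515 and 0.266 for Ccl2 with Cxcl1. It was 0.353 and 0.390 for Ccl2 with Csf1. Cxcl14 ran against Ccl2, at -0.284 and -0.341. After the mean of each state was taken away, Ccl2 with Ccl7 stood at 0.579 and 0.574, Ccl2 with Cxcl1 at 0.508 and 0.371, and Cxcl14 with Ccl2 at -0.189 and -0.133. The points are cells of 1 sample per genotype that differ in depth, so these values are descriptions. Depth itself, as log2 of reads, correlated with Cxcl14 at 0.299 and 0.471, with Cxcl1 at 0.058 and 0.311, and with Ccl2 at 0.085 and -0.0073.

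**Figure D5:**
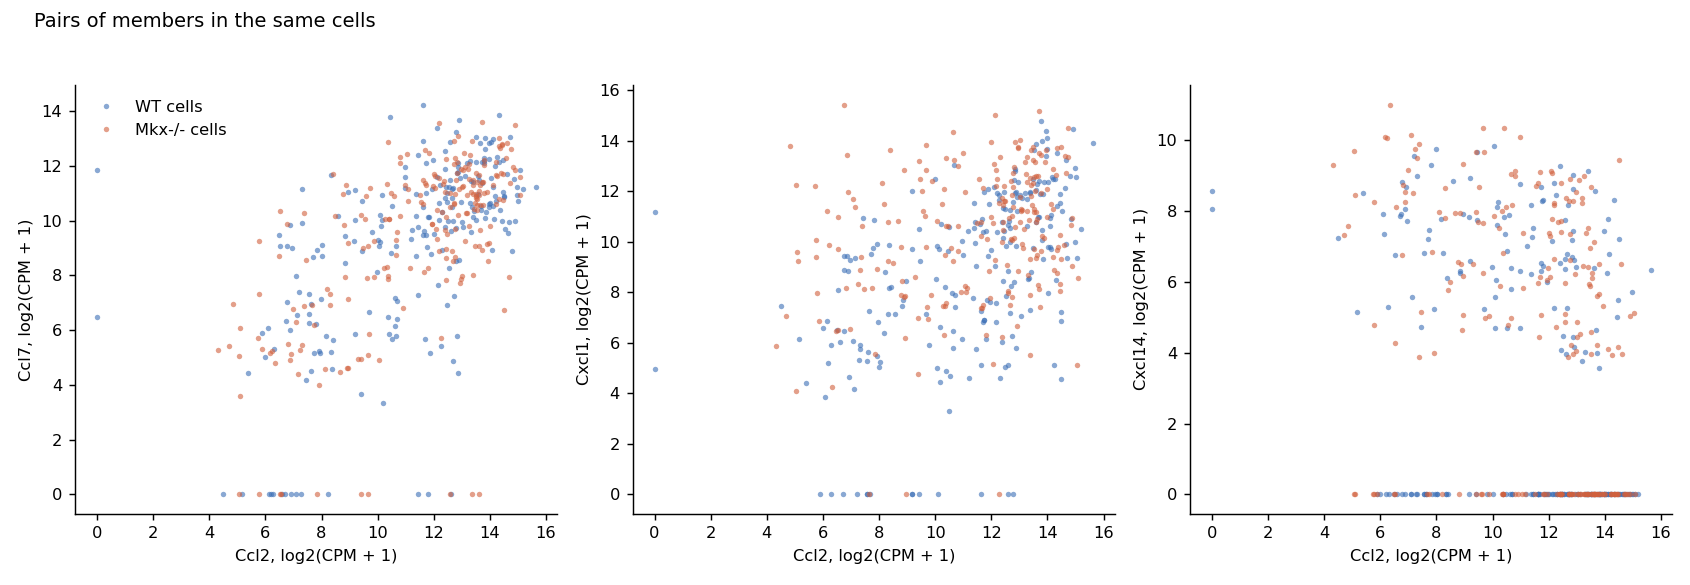
Ccl7, Cxcl1 and Cxcl14 against Ccl2 in the same cell, all as log2(CPM + 1); each point is 1 cell, blue for WT and orange for Mkx-/-. Ccl7 climbs with Ccl2 (r of 0.589 and 0.620), Cxcl1 does so less in Mkx-/- cells (0.515 and 0.266), and many cells high in Ccl2 have a Cxcl14 value of 0.

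The genes most like each member were ranked by the lower of the 2 genotypes' correlations over the other 7146 genes read in at least 10% of cells of each genotype. For Cxcl1 they were Cxcl2, a close relative (0.395 and 0.413), Nfkbia, an inhibitor of NF-kB (0.341 and 0.341), and Nfkbiz, which encodes a nuclear partner of NF-kB (0.295 and 0.318). For Ccl2 they were Ccl7, Cd44 (0.426 and 0.431) and Gfpt2 (0.428 and 0.401), and for Ccl7 they were Ccl2, Cd44 (0.378 and 0.390) and Nfkbia (0.403 and 0.324). For Csf1 they were Ccl2, Ccl7 and Cd44 (0.293 and 0.263). For Cxcl14 they were 1500015O10Rik (0.668 and 0.685) and the collagen genes Col1a1 (0.652 and 0.706) and Col1a2 (0.651 and 0.704). Within states the values for Col1a1 were -0.016 and 0.157, whereas those of Cxcl2 for Cxcl1 were 0.398 and 0.403.

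Promoter sequences were set beside these levels, because Nfkbia and Nfkbiz, both of the NF-kB system, were among the genes most like Cxcl1. Of the 10 members 7 had a window in the RefSeq table (GRCm38.p6), Il33 with a pair of windows. Ccl2, Ccl7 and Cxcl5 had none and were not searched. In the others the 250 bases before the start were searched on both strands. The motifs searched for were the kappa B motif bound by NF-kB, the AP-1 motif TGANTCA, and TATAAA. The kappa B motif was found in 4 of 8 windows (Cxcl1, Il6, Csf1 and Lif), against 7.25% of 32851 windows of all genes. TGANTCA was found in Il6 and Lif (6.75% of all windows) and TATAAA in both windows of Il33 (12.4%). The motifs do not overlap each other, apart from the kappa B motif of Cxcl1, which matches on both strands 1 base apart. The windows of Cxcl1 (chr5:90890995-90891244, plus strand), Il6 (chr5:30012864-30013113, plus strand) and Csf1 (chr3:107760470-107760719, minus strand) are shown as an abundant, a rare and an intermediate gene with the motif, and Cxcl14 (chr13:56296552-56296801, minus strand) as one in which no searched motif was found. They are written 5′ to 3′ on the strand of the gene, with matches to any searched motif in capitals.
Cxcl1: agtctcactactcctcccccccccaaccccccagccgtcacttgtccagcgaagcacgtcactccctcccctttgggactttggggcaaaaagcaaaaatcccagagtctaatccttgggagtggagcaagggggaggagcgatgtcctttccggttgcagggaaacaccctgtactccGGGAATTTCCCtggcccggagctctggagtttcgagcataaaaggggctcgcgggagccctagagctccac
Il6: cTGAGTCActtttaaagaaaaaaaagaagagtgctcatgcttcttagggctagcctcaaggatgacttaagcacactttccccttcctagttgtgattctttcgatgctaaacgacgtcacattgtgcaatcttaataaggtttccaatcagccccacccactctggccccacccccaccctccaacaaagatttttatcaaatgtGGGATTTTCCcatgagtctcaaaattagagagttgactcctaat
Csf1: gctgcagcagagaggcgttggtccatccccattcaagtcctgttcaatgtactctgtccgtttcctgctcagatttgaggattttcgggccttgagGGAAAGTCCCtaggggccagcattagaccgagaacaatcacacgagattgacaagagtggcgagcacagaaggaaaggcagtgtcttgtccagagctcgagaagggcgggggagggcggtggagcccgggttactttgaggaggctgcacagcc
Cxcl14: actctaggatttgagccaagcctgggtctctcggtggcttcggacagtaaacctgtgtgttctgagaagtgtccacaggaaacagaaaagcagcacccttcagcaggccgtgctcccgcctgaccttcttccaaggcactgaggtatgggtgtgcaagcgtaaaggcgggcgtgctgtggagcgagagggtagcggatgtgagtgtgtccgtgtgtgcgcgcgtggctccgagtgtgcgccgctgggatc

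In Cxcl1 the match lies 71 to 61 bases before the start, in Il6 the kappa B match 44 to 35 and the AP-1 match 249 to 243 bases before it, while that of Csf1 lies further upstream on the opposite strand. A match is a string of letters in a window and not a site shown to be bound. The levels of the genes with a kappa B match ran from 6.41 CPM per kb (Il6) to 2282 CPM per kb (Cxcl1) in WT cells, and only Cxcl1 among them was over 2-fold higher in Mkx-/- cells.

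The other chemokines were mostly low. Of 30 further chemokine genes, 24 had a read and 11 had at least 100 reads. Of these 11, 1 was over 2-fold higher in Mkx-/- cells (Ccl5), beside 7.23% of all genes, and 2 were lower (Cxcl3 and Cxcl10), beside 6.12%. Cxcl2, another ligand of Cxcr2, was the most abundant, at 190 CPM (WT) and 244 CPM (Mkx-/-), for a log2 ratio of 0.36 (0.29 to 0.44). Cxcl3 stood at 8.8 CPM (WT) and 0.424 CPM (Mkx-/-), from 120 and 6 reads. Cxcl10, an interferon-induced ligand of Cxcr3, stood at 8.58 and 2.76 CPM. Ccl5 stood at 40.7 and 93.2 CPM, but 80.9% of its WT reads and 45.9% of its Mkx-/- reads came from 1 cell each. Of the ligands of Cxcr2, then, Cxcl1 and Cxcl2 were higher in Mkx-/- cells and Cxcl3 was lower.

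Of 25 further cytokine genes 11 had at least 100 reads. Of these, 3 were over 2-fold higher (Il16, Il17d and Clcf1), beside 7.23% of all genes, and 2 lower (Csf2 and Kitl), beside 6.12%. Clcf1, a gp130 cytokine, stood at 7.56 CPM (WT) and 21.1 CPM (Mkx-/-), for a log2 ratio of 1.48 (1.15 to 1.82). Kitl, the ligand of Kit, stood at 19.002 and 5.87 CPM (log2 ratio -1.70, -2.07 to -1.33). Mif and Il11 were the most abundant, at 73.2 and 31.3 CPM in WT and 56.98 and 25.3 CPM in Mkx-/- cells.

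Of 23 receptor genes 17 had at least 100 reads and none was over 2-fold different, beside 7.23% of all genes higher and 6.12% lower. Ackr3, an atypical receptor that takes up Cxcl12, was the most abundant, at 802 CPM (WT) and 579 CPM (Mkx-/-), while Cxcr4, the signalling receptor for Cxcl12, had 19 and 5 reads. Il1rl1, which encodes the Il33 receptor ST2, stood at 284 CPM (WT) and 562 CPM (Mkx-/-), for a log2 ratio of 0.98 (0.93 to 1.04). It was read in 48.02% and 71.9% of cells. The top cell gave 6.56% of its WT reads and 16.02% of its Mkx-/- reads. Without the top cell of each genotype the log2 ratio was 0.83. Il33 itself was lower in Mkx-/- cells, as given above. Il1rap, which encodes the partner chain of ST2, had 76 and 42 reads. Cxcr2 had 1 and 8 reads and Ccr2 1 and 0 reads in all. Csf1r, which is also on the macrophage list, stood at 8.66 and 7.0 CPM, of which 26.3% and 52.5% came from 1 cell each.

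Of 26 signalling and response genes 24 had at least 100 reads. Of these, 1 was over 2-fold higher (Saa3), beside 7.23% of all genes, and 1 lower (Cebpb), beside 6.12%. Nfkbia stood at 1181 CPM (WT) and 1510 CPM (Mkx-/-), for a log2 ratio of 0.35 (0.33 to 0.38), and Jak1 at 352 and 347 CPM. Cebpb, a transcription factor of inflammatory genes, stood at 76.9 and 36.8 CPM (log2 ratio -1.06, -1.22 to -0.91). Saa3 had 11 WT reads from 1 cell, and it stood at 13.7 CPM in Mkx-/- cells with 92.8% of the reads from 1 cell. Of 14 genes known to respond to dissociation and stress, all had at least 100 reads. None was over 2-fold different, beside 7.23% of all genes higher and 6.12% lower. Atf3 stood at 601 and 495 CPM and Fos at 584 and 498 CPM. Jund stood at 8.07 and 10.5 CPM (log2 ratio 0.38, 0.02 to 0.75). Fos was higher in TC-like cells (1043 and 826 CPM) than in TPC-like cells (154.9 and 143.9 CPM) of both genotypes. The part that cell isolation had in the levels of the members was not tested.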

How the data were processed

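Single cells of WT and Mkx-/- tail tendon were sequenced on the Fluidigm C1 platform. The authors filtered reads with AfterQC, aligned them with bowtie2 and deposited raw read counts per gene, made with featureCounts, with no normalization and 0 columns left unused here. The study's methods name mm9 and the submitters' processing notes mm10, and strand and multiply mapped reads are not described in the sources used here. Gene positions are those of NCBIM37.

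Clusters were rebuilt with Seurat 5.3.0 in R 4.3.3 from 1678 variable genes, after 15 chemokine, cytokine and related genes were left out, with 4 aligned dimensions and a resolution of 0.4. The names may therefore differ from those of the study, whose removal of outlying cells was not repeated, and no doublet caller was run. Counts were summed over cells, divided by all reads (CPM) and compared as ratios in Python 3.11.15 with numpy 2.4.6, scipy 1.17.1 and pandas 2.3.3. Exact 95% intervals are Poisson for sums, conditional binomial for ratios and Clopper-Pearson for shares, and cover counting error only. Ratios needed over 3 reads in 1 genotype, a count of 0 was set to a floor of 3 reads over the group, and counts of genes past a fold used those with at least 100 reads in the cells compared, or over all cells for TC-like against TPC-like cells and for shares of cells with a read. Equal depth means the expected share after drawing 20000 reads from each cell, without the 2 WT and 5 Mkx-/- cells below that depth. Coding sequences of the members were searched against NCBIM37 with blastn 2.17.0, and none had a copy of at least 95% identity over 100 bases. Scripts were tested on simulated data. The members and gene lists were chosen with earlier results of these data known. Every member is named, and of each list the 2 genes with the highest summed level and the 2 with the largest ratio, besides those over 2-fold and receptors of the members' ligands, which were added after their values were seen. Alternatives covered the scaling (edgeR 4.0.16), weighting of cells, top cells, cell filters, depth and clustering.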

Additional observations from a re-analysis of the deposited data

How the results depend on the processing

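No paired analysis was possible because each genotype was 1 sample and the labels give no numbers shared between cells. The median log2 ratio of the 9 members, 0.00087, was 0.026 without the top cell of each genotype, -0.030 in cells under 5000 genes, -0.031 in cells with at least 2500 genes and -0.042 after thinning to 20000 reads. The 2 members over 2-fold higher in Mkx-/- cells became 0 with the mean of per-cell CPM, in cells under 5000 genes and after thinning. The 2 members over 2-fold lower became 1 under these 3 settings, without the top cells, in cells with at least 2500 genes and, in a setting added after the data were seen, without cells that carried markers of another type, where Ccl2 also ceased to be over 2-fold higher in TPC-like cells (1 became 0). Over all cells the members over 2-fold different kept their direction in the settings run. Within states, Lif in unnamed cells went from a log2 ratio of 1.10 to -0.077 when the listed genes were kept in the clustering. Among single genes, 24 of 72 values over all cells and 25 of 60 within states moved by more than their counting interval. The TC-like cluster held the same 74 and 80 cells with the listed genes kept and with 10 dimensions. Among the splits of the cells, its values could therefore move only under the split by marker score, and the unmoved values include these fixed ones. With 1 sample per genotype, differences between animals, chips and genotypes cannot be told apart, and members with under 300 reads rest on few cells.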

Other observations

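Il1rl1, which encodes the Il33 receptor, differed by state. In WT and Mkx-/- cells in turn it stood at 388 and 466 CPM in TPC-like cells, at 468 and 1305 CPM in unnamed cells, and at 130.5 and 334 CPM in TC-like cells. Of all its Mkx-/- reads 16.02% came from 1 cell, and levels by state without that cell are not given here. Cebpb was lower in Mkx-/- cells of each state, at 60.7 and 39.5 CPM in TPC-like, 95.1 and 50.02 CPM in unnamed, and 80.6 and 29.8 CPM in TC-like cells. Kitl stood at 16.1 and 1.45 CPM in TC-like cells and at 24.4 and 9.49 CPM in TPC-like cells. Clcf1 was higher in Mkx-/- cells of each state, and stood highest in unnamed cells, at 10.97 and 42.98 CPM. Cxcl2 differed in direction between states, with 184.8 and 148.3 CPM in TPC-like, 92.5 and 208.2 CPM in unnamed, and 235 and 321 CPM in TC-like cells. That difference between states was not tested.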
